A study of Mus musculus with 8 samples.

Results

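The immunoglobulin constant region genes decide the class of the antibody that a B cell makes. They were taken by symbol from a list of 10 genes of the mouse, which holds the 8 heavy chain constant genes and the kappa and lambda 1 light chain constant genes. Of these, 8 had a row among the 39017 genes of the deposited table, namely Ighm, Ighg1, Ighg2b, Ighg2c, Ighg3, Ighe, Igha and Igkc. Ighd (IgD) and Iglc1 (lambda 1) had no row in the table used and were not analysed here. The 8 libraries came from splenic B cells of C57BL6/J mice, 4 independent samples per genotype, grown to day 4 on 40LB cells as induced germinal center-like B cells (iGBs). 40LB cells are feeder cells that present CD40L and make BAFF, and IL-4 was added at 1 ng/mL. The Prmt5-null B cells carried Prmt5 F/F and Cγ1-cre, and the controls carried Cγ1-cre alone, so Prmt5, an arginine methyltransferase, was removed during activation. Libraries are named as labelled, PRMT5 for Prmt5-null and CTRL for control, each followed by a number. Values per library are always listed in the order PRMT5-10617, PRMT5-10618, PRMT5-10770 and PRMT5-10771 for Prmt5-null, and for controls in the order CTRL-10650, then CTRL-10370, then CTRL-10596 and last CTRL-10597.

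In an antibody gene, the rearranged V(D)J exon is first transcribed together with the mu constant exons. Class switch recombination brings a downstream constant gene next to the same V(D)J exon, and each downstream gene is first transcribed from its own promoter as a germline transcript that codes for no antibody. IL-4 together with CD40 signals is known to turn on the germline transcripts of Ighg1 and Ighe, the IgG1 and IgE genes. A gene-level count holds germline and V(D)J transcripts, and membrane and secreted forms, as a single number. Cγ1-cre limits the groups as a model in another way: the Cre is driven by Cγ1 germline transcription from the Ighg1 locus in both genotypes, so cells that never transcribed Cγ1 may keep Prmt5.

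The 7 heavy chain genes lie on chromosome 12 of GRCm38, all on the minus strand, in the order in which they are transcribed: Ighm at chr12:113418558-113422730, Ighg3 at chr12:113356224-113361232, Ighg1 at chr12:113325240-113330523, Ighg2b at chr12:113302965-113307933, Ighg2c at chr12:113285325-113288932, Ighe at chr12:113269260-113273248 and Igha at chr12:113254830-113260236. Igkc lies on the plus strand at chr6:70726435-70726966, inside the span of a long noncoding RNA gene of the same strand. The hinge exon, which joins the arms of IgG to its stem, differs in length between the 4 IgG genes. Their hinge exons are shown because the results separate Ighg2b from Ighg1. Each is written 5′ to 3′ along the transcript, with in-frame cysteine codons in capitals:
Ighg1 hinge, chr12:113329844-113329882: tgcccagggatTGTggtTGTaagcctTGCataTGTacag
Ighg2b hinge, chr12:113307261-113307326: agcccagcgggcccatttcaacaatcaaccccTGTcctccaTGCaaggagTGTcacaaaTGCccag
Ighg2c hinge, chr12:113288263-113288325: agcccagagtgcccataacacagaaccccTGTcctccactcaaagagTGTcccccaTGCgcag
Ighg3 hinge, chr12:113360529-113360576: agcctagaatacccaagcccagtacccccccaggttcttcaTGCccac

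The first 60 bases of the first constant exon, CH1, are shown for the 4 genes on which the results turn. They are also written 5′ to 3′ along the minus strand. Capitals mark bases that differ from Ighg1 at the same position, counted without gaps:
Ighg1 CH1, chr12:113330464-113330523: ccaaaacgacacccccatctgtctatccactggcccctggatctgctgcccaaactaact
Ighg2b CH1, chr12:113307874-113307933: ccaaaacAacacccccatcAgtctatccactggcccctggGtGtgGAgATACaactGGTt
Ighe CH1, chr12:113273189-113273248: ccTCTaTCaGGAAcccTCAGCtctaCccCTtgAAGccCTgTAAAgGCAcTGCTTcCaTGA
Ighm CH1, chr12:113422671-113422730: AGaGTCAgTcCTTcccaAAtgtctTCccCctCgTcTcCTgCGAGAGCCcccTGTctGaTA

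Ighg2b differed from Ighg1 at 13 of these positions, Ighm at 34 and Ighe at 38. Over CH1, hinge and CH2, the coding bases of Ighg2b and Ighg2c were 90.2% identical, and the other IgG pairs ranged from 76.9% to 82.4%. No stretch of 100 bases of the 8 genes occurred in another annotated gene. At 50 bases, 4.15% of the stretches of Ighg2b, 5.49% of Ighg2c, 1.58% of Ighg3 and 0.393% of Ighg1 did.

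The libraries held 42752293 to 47174851 reads on genes in Prmt5-null iGBs and 36731721 to 50366174 in controls, of which immunoglobulin genes took 0.866 to 1.11%. Values are normalized counts, which are reads divided by the size factor of the library. Prmt5 measured 1538 ± 436 in Prmt5-null and 11774 ± 908 in control iGBs (SD, n = 4), with no overlap. The 6 B cell markers were present, with summed normalized counts of 148893 to 177101 in Prmt5-null and 147135 to 170421 in control iGBs. Of the 4 germinal center-like markers none was called, and Fas passed the adjusted p alone, at 0.47 on the log2 scale (adjusted p = 0.00504, limma). The 10 fibroblast markers, which the feeder cells express, summed to 7214 to 12013 in Prmt5-null and 4706 to 8188 in control iGBs. Of the 9 tested, 3 were called higher, against 3.49% of all genes tested. The 5 T cell markers summed to at most 19.0, with Cd3e at 0 in every library, and the 5 myeloid markers to at most 298, with Emr1 (a macrophage marker) called higher by 0.70 on the log2 scale. The part of these cells in the results below was not tested.

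Per kilobase of merged exon, Igkc, which codes for the constant part of the kappa light chain, was the highest of the 8 genes in both genotypes, at 144372 ± 20607 normalized counts per kilobase in controls and 134383 ± 10723 in Prmt5-null iGBs (SD, n = 4). In controls Ighe followed at 56853 ± 18676 and Ighm at 50304 ± 7160, and the ranges of these neighbours overlapped. In Prmt5-null iGBs the order of the means was turned, with Ighm at 68931 ± 2654 and Ighe at 33447 ± 6889. Their ranges did not overlap there. Among controls the order varied between libraries, and in CTRL-10370 Ighm stood above Ighe, at 60386 and 34414. Ighg1 came next in both genotypes, at 14863 ± 820 and 17509 ± 1436. The other 4 genes stood far lower, between 28.9 and 142 on this scale. Among them Igha and Ighg3 overlapped in controls, as did Ighg2b and Ighg2c. Among the 7 heavy chain genes with a row, transcripts of IgM, IgE and IgG1 thus made up almost all reads, and those of IgG2b, IgG2c, IgG3 and IgA were rare.

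Against controls, Prmt5-null iGBs held more Ighg2b and Ighm RNA and a smaller share of Ighe among the heavy chain reads. Of the 8 genes, 1 was called, that is it reached an adjusted p below 0.05 in limma's test over 16250 genes together with a change of at least 1.5-fold. Over all genes tested, 6.48% were called, 3.49% higher and 2.99% lower in Prmt5-null iGBs. On recovered reads, edgeR and DESeq2 each called 2 of the 8, Ighg2b and Ighe, against 6.71% and 7.86% of all genes. At any fold, 2 of the 8, Ighg2b and Ighm, passed the adjusted p, both higher in Prmt5-null iGBs, and 13.8% of all genes passed in either direction. At an unadjusted p below 0.05 there were 5 of the 8, against 29.3% of all genes. The estimated change was above 0 for 5 genes and below 0 for 3, with a median of 0.35 on the log2 scale beside 0.00 over all genes. The libraries of the genotypes did not overlap for 3 of the 8, all higher in Prmt5-null iGBs. Over all genes the libraries did not overlap for 19.8%, with 9.67% higher and 10.2% lower in Prmt5-null iGBs. As in any bulk RNA measurement, fewer cells of a kind and less RNA per cell cannot be told apart.

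Ighg2b, which codes for the IgG2b heavy chain, was the gene called. Its normalized counts were 320, 306, 216 and 340 in Prmt5-null libraries, and 111, 75.8, 118 and 114 in control libraries. The lowest Prmt5-null value was well above the highest control, and library PRMT5-10770 was the lowest of its genotype. The means were 296 ± 54.7 and 105 ± 19.5 (SD, n = 4), a log2 fold change of 1.49 (SE 0.19, adjusted p = 0.000481, limma). The difference kept its side of the threshold whichever library was left out, with log2 fold changes from 1.34 to 1.63. These values rest on 200 to 364 reads in Prmt5-null and 85 to 132 in control libraries, and the mean was far below that of Ighg1, the nearest upstream gene.

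Ighm codes for the heavy chain of IgM, the class made before switching. It measured 126066, 126070, 136507 and 131373 in Prmt5-null libraries. In control libraries it measured 90874, 113888, 82035 and 92701. All Prmt5-null libraries were above all controls, among which library CTRL-10370 was highest. The means of 130004 ± 5005 and 94874 ± 13504 (SD, n = 4) gave a log2 fold change of 0.46 (SE 0.11, adjusted p = 0.0156, limma). That is a 1.38-fold difference, short of the 1.5-fold asked of a call. The adjusted p rose to 0.0522 without Prmt5-null library PRMT5-10771 and to 0.0560 without control library CTRL-10596 (limma).

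Ighe codes for the heavy chain of IgE. Its normalized counts were 50654, 60590, 38549 and 62259 in Prmt5-null libraries, against 113816, 54546, 115168 and 76917 in control libraries. The genotypes overlapped through control library CTRL-10370 alone, which lay between the Prmt5-null libraries. With means of 53013 ± 10919 and 90112 ± 29601 (SD, n = 4), the log2 fold change was -0.73 (SE 0.23), with an adjusted p of 0.0546 in limma's test. That misses the threshold. The tests on recovered reads put it past the threshold, at an adjusted p of 0.0431 in edgeR and 0.0045 in DESeq2, and so did limma's test without control library CTRL-10370, at a log2 fold change of -0.94 and an adjusted p of 0.0109. With 1 library left out, the adjusted p of Ighe ran from 0.0109 to 0.154, the highest without control library CTRL-10596 (limma). The call for Ighe on levels therefore depended on the method and on the libraries included.

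Ighg1 codes for the IgG1 heavy chain, and its locus carries the Cre in both genotypes. It measured 43983, 48385, 40755 and 48413 in Prmt5-null libraries. In control libraries it measured 38968, 35521, 40536 and 39072. The libraries did not overlap, by a narrow margin, with means of 45384 ± 3722 and 38524 ± 2126 (SD, n = 4). The log2 fold change of 0.23 (SE 0.09) had an adjusted p of 0.0945 in limma's test and did not pass. Without library PRMT5-10770 it passed, at 0.28 (adjusted p = 0.0310, limma). With any other library left out it did not, at adjusted p up to 0.237 (limma).

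**Figure D1:**
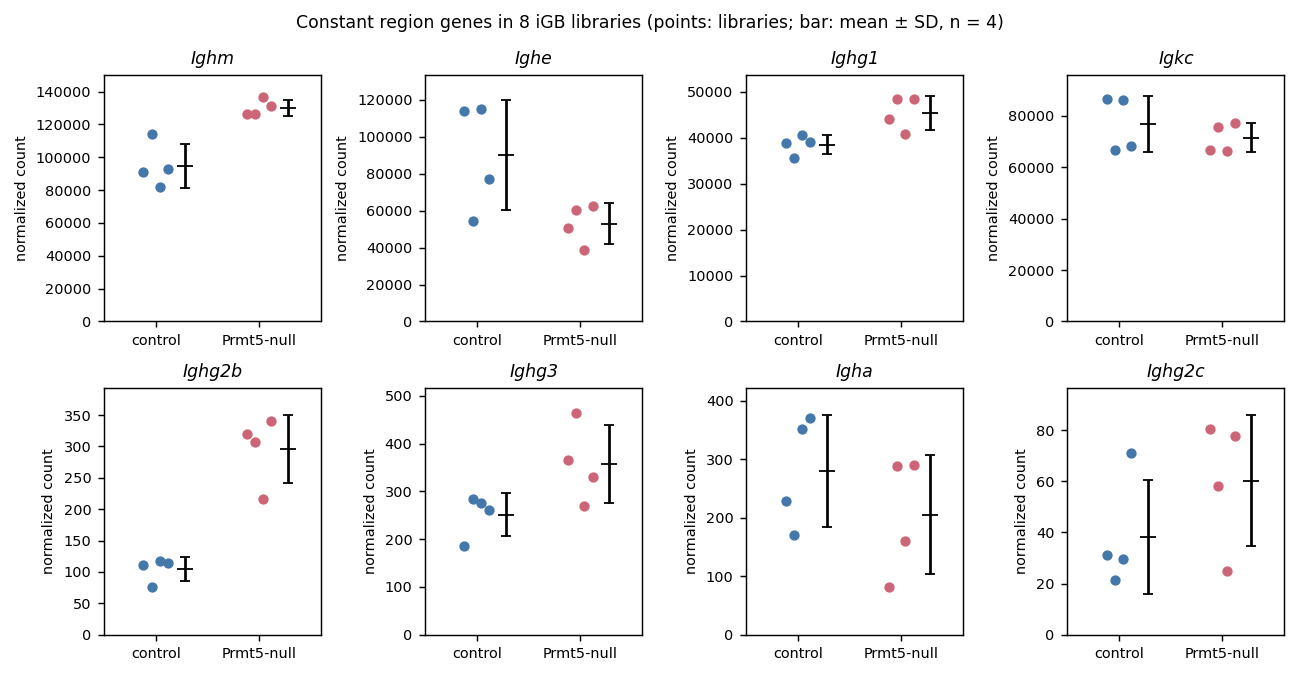
Normalized counts of the 8 constant region genes, each panel on its own linear axis from 0. Points are libraries and bars are mean ± SD (n = 4). Ighg2b, Ighm and Ighg1 do not overlap between genotypes, and Ighe overlaps through 1 control at 54546.

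Ighg3, Ighg2c and Igha did not pass limma's test over all libraries either. Ighg3, the IgG3 gene next upstream of Ighg1, measured 270 to 464 in Prmt5-null and 185 to 284 in control iGBs, with a log2 fold change of 0.50 (SE 0.18, adjusted p = 0.0944, limma). Without library PRMT5-10770, Ighg3 was called, at 0.62 (adjusted p = 0.0346, limma). With any other library left out Ighg3 did not pass, at adjusted p up to 0.223 (limma). Ighg2c is the gene that C57BL/6 mice carry in place of Ighg2a, and it rested on only 23 to 87 reads per library. Its normalized counts ran from 24.9 to 80.5 in Prmt5-null and from 21.4 to 71.1 in control iGBs, and its log2 fold change was 0.66 (SE 0.42, adjusted p = 0.330, limma). Igha, the IgA gene at the far end of the locus, ran from 82.4 to 290 and from 171 to 370, at -0.55 (SE 0.37, adjusted p = 0.364, limma). The genotypes overlapped in all of these genes. Changes of the size of those of Ighg2c and Igha were not detectable at the spread of these libraries.

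Igkc measured 66785, 75504, 66401 and 77278 in Prmt5-null libraries, and 86456, 66585, 86113 and 68069 in control libraries. The genotypes overlapped, and the controls fell into a higher pair, CTRL-10650 and CTRL-10596, and a lower pair. The log2 fold change was -0.10 (SE 0.11, adjusted p = 0.621, limma), with a 95% interval from -0.34 to 0.15 unadjusted for the number of genes. Iglc2, the lambda 2 light chain constant gene and the only lambda constant gene with a row, stood at -0.03 (adjusted p = 0.862, limma). The ratio of Igkc to Iglc2 did not pass its exact permutation test (p = 0.4).

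**Figure D2:**
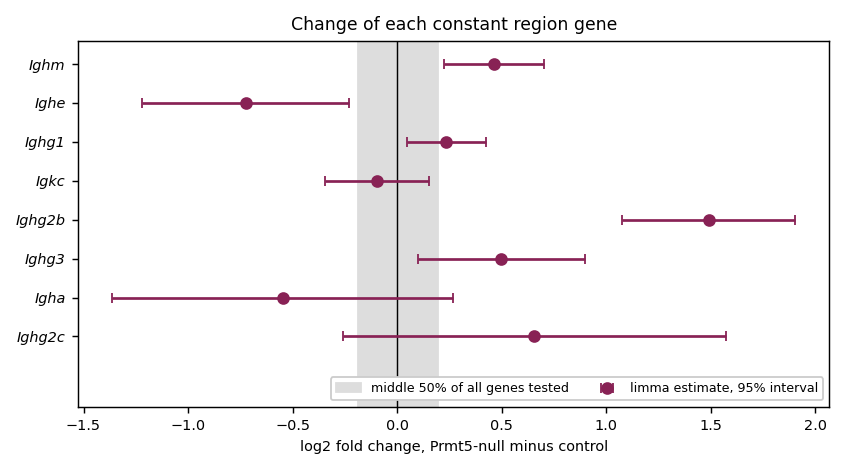
Log2 fold change of each gene, Prmt5-null minus control, from limma, with unadjusted 95% intervals as bars. The grey band is the interquartile range of all 16250 genes tested, from -0.19 to 0.20, and Ighg2b at 1.49 is the farthest from 0.

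As shares of the reads of these 7 heavy chain genes, in which size factors cancel, the 2 genotypes differed by the most points in Ighe. Its reads made up 22.9%, 25.7%, 17.8% and 25.6% in Prmt5-null libraries, and 46.6%, 26.7%, 48.3% and 36.7% in control libraries. The 2 ranges did not meet, though library CTRL-10370 was only about a point above the nearest. The means were 23.0% ± 3.69 and 39.6% ± 9.9996 (SD, n = 4), a difference of -16.6 points with p = 0.0286 in the two-sided exact permutation test, the smallest p that 4 against 4 libraries can give. The shares were tested for 7 genes and these p-values are unadjusted. The shares of a library have a fixed sum, so a lower share of Ighe and higher shares of other genes are not separate results.

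The Ighm share was 56.8% ± 4.41 in Prmt5-null and 42.9% ± 9.49 in control iGBs (SD, n = 4), and it overlapped through control library CTRL-10370 at 55.7% (exact permutation p = 0.0857). Ighg1 took 19.8% ± 0.692 and 17.2% ± 1.11, without overlap (SD, n = 4, exact permutation p = 0.0286). Ighg2b took 0.129% ± 0.02004 and 0.0466% ± 0.00732, also without overlap (SD, n = 4, exact permutation p = 0.0286). The shares of Ighg3, Ighg2c and Igha overlapped, with exact permutation p of 0.114, 0.343 and 0.286. All classes other than IgM together made up 43.2% ± 4.41 and 57.1% ± 9.49 (SD, n = 4, exact permutation p = 0.0857). Without library CTRL-10370 the Ighm share differed by 18.2 points (exact permutation p = 0.0286). The widest 95% binomial interval (exact Clopper-Pearson) of a single library was 0.464 points for Ighm and 0.450 for Ighe, narrow beside the spread between libraries. For Ighg2b it was 0.0309 points, in library PRMT5-10617, beside shares from 0.100% to 0.145% across Prmt5-null libraries. In controls it was at most 0.0223 points, beside shares from 0.0371% to 0.0543%. These are full widths, which are not on the scale of an SD. These intervals cover counting error only.

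**Figure D3:**
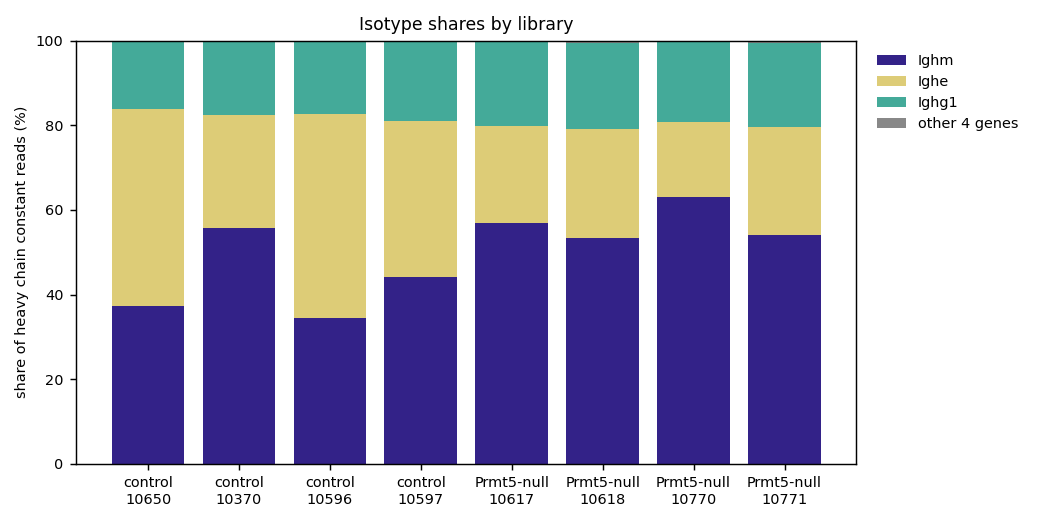
Share of heavy chain constant reads, in percent, taken by Ighm, Ighe, Ighg1 and the remaining 4 genes in each library, named by genotype and number. Ighe takes 17.8 to 25.7% in Prmt5-null and 26.7 to 48.3% in control libraries, and the remaining 4 genes are too rare to see.

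Ratios between genes of the same library separated Ighe from Ighg1, the other IL-4 dependent class. The ratio of Ighe to Ighg1 reads was 1.15, 1.25, 0.946 and 1.29 in Prmt5-null libraries, and 2.92, 1.54, 2.84 and 1.97 in control libraries. No Prmt5-null library reached a control. The geometric means differed 0.514-fold (exact permutation p = 0.0286, n = 4). Ighe to Ighm differed 0.439-fold, with control library CTRL-10370 just inside the Prmt5-null range (exact permutation p = 0.0571, n = 4). Ighg1 to Ighm differed 0.853-fold and overlapped (exact permutation p = 0.229, n = 4). Without that library both reached an exact permutation p of 0.0286.

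Ighg2b to Ighg1 was 2.40-fold higher in Prmt5-null iGBs, at 0.00531 to 0.00728 against 0.00213 to 0.00292 (exact permutation p = 0.0286, n = 4). In all, 9 ratios were tested, and their p-values are unadjusted.

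**Figure D4:**
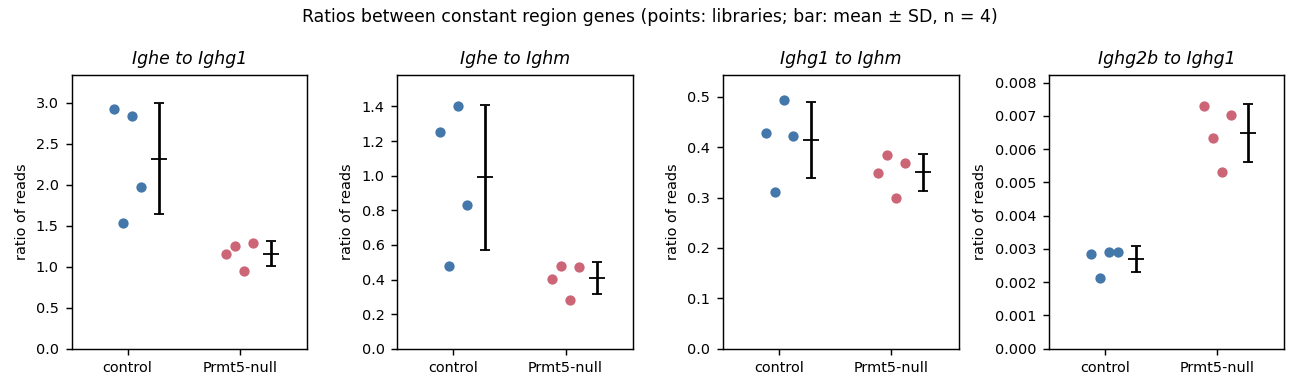
Ratios of reads between constant region genes in each library, on linear axes from 0. Points are libraries and bars are mean ± SD (n = 4). Ighe to Ighg1 and Ighg2b to Ighg1 do not overlap, and the other 2 ratios do.

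The total over the 7 heavy chain constant genes was alike in size, at 229320 ± 12401 normalized counts in Prmt5-null and 224185 ± 20076 in control iGBs (SD, n = 4, exact permutation p = 0.657). The summed heavy chain variable genes were 0.965-fold of control (exact permutation p = 0.571, n = 4), and the ratio of constant to variable reads overlapped (exact permutation p = 0.171, n = 4). Heavy chain constant reads per Igkc read were 3.13 to 3.32 in Prmt5-null and 2.77 to 3.08 in control iGBs, a 1.10-fold difference (exact permutation p = 0.0286, n = 4). Igkc reads per kappa variable read differed by 1.02-fold, without overlap (exact permutation p = 0.0286, n = 4).

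Within each genotype the libraries also differed. Control libraries CTRL-10650 and CTRL-10596 were highest in Ighe, in Igkc, in the summed heavy chain variable genes, at 43635 and 43573, and in the summed kappa variable genes, at 74687 and 74505. Control library CTRL-10370 was lowest of the controls in Ighe, Ighg1, Ighg2b and Igkc and highest in Ighm. Among Prmt5-null libraries, PRMT5-10770 and PRMT5-10617 were lowest in Ighe, Ighg1 and Igkc. The same 2 libraries had the least remaining Prmt5, at 1060 and 1291 normalized counts, against 1994 in library PRMT5-10618 and 1808 in library PRMT5-10771. With 4 libraries per genotype these orders are a description, and the summed fibroblast markers of libraries PRMT5-10770 and PRMT5-10617, at 9636 and 12013, were also the highest of all 8 libraries. The part of the feeder cells in these orders was not tested.

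Genes of secretion and of plasma cells, the antibody-secreting descendants of B cells, were read beside Ighe. Of 9 tested, none was called, and 2 passed limma's adjusted p, both lower, against 13.8% of all genes in either direction. The median log2 fold change was -0.45 over the list beside 0.00 over all genes. Prdm1, which drives plasma cell differentiation, measured 796, 939, 672 and 998 in Prmt5-null libraries, and 1288, 944, 1347 and 1170 in control libraries (log2 fold change -0.48, SE 0.14, adjusted p = 0.0428, limma). The overlap was through control library CTRL-10370, as for Ighe. Xbp1, a transcription factor of the secretory pathway, changed by -0.45 on the log2 scale (SE 0.12, adjusted p = 0.0305, limma). Igj, the gene of the J chain that links IgM and IgA into polymers, changed by -0.57 and did not pass (adjusted p = 0.0764, limma).

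The estimates of 3 genes of the list lay above 0, and none of these passed. Irf4, a regulator of switching and of plasma cells, stood at 0.19 (adjusted p = 0.134, limma), at 14055 to 15374 normalized counts in Prmt5-null and 11263 to 13738 in control iGBs, without overlap. Sdc1, the gene of the plasma cell surface marker CD138, stood at 0.16 (adjusted p = 0.588, limma), and its Prmt5-null libraries, at 632 to 749, lay within the control range of 432 to 806. Tnfrsf17, the gene of the BAFF family receptor BCMA, stood at 0.40 (adjusted p = 0.656, limma) on 2 to 16 reads per library.

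Libraries CTRL-10596 and CTRL-10650 were highest of all 8 in Ighe, Prdm1, Xbp1, Igj and Sdc1 but not in Irf4, and library PRMT5-10770 was lowest in Ighe, Prdm1 and Xbp1. The plasma cell markers summed to 23641 to 31174 in Prmt5-null and 29920 to 45657 in control iGBs. Xbp1 and Igj carried most of these sums, at means of 18185 and 7413 in Prmt5-null and 24936 and 10923 in control iGBs. Prdm1, Sdc1 and Tnfrsf17 stood far lower, and the estimates of Sdc1 and Tnfrsf17 lay above 0. Whether plasma cell content set the Ighe level was not tested.

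**Figure D5:**
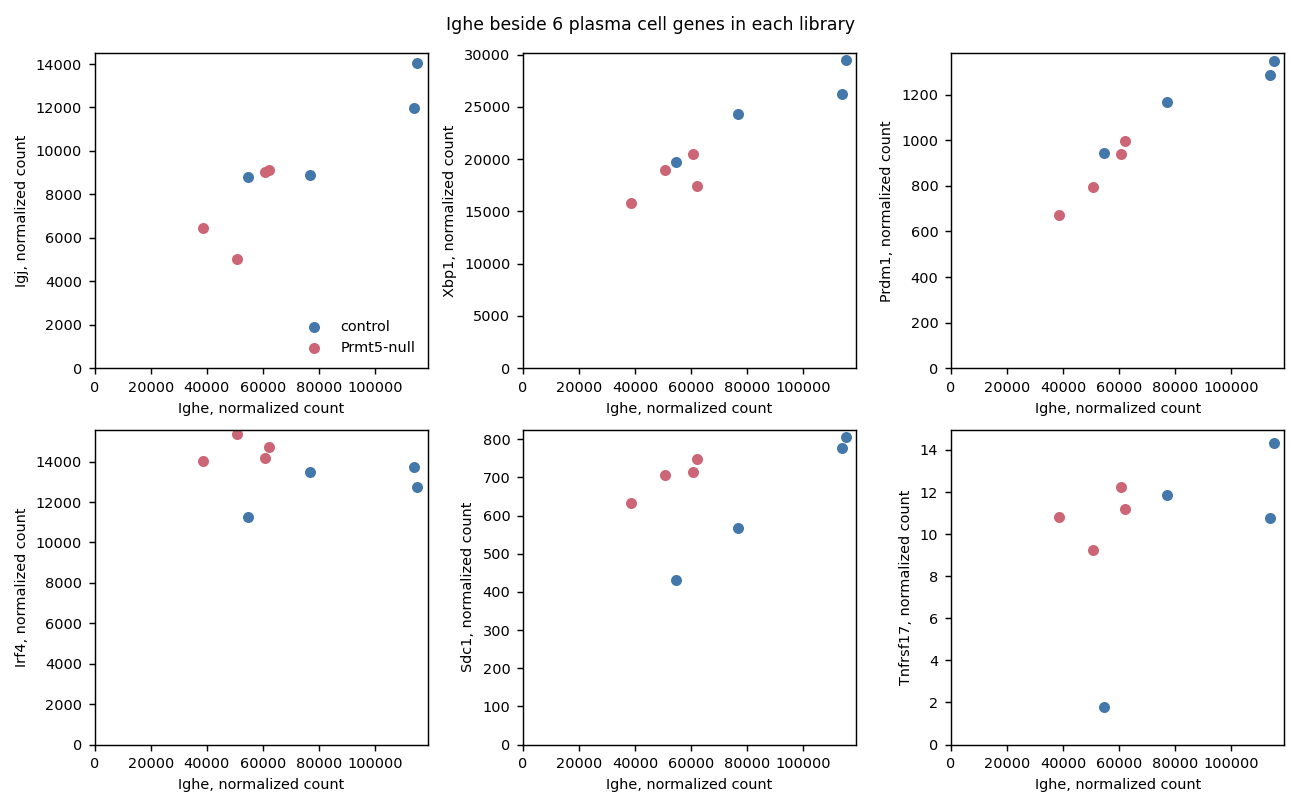
Ighe against Igj, Xbp1, Prdm1, Irf4, Sdc1 and Tnfrsf17 in each library, all as normalized counts on linear axes from 0, with colors for genotype. The 2 controls with Ighe at 113816 and 115168 have the highest Igj, Xbp1, Prdm1 and Sdc1, while all Prmt5-null libraries lie above all controls in Irf4.

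Of 21 genes that carry IL-4 and CD40 signals to the germline promoters, 1 was called lower, against 6.48% of all genes in either direction. The median log2 fold change of the list was -0.01. The gene called was Jak3, the kinase bound to the common gamma chain of the IL-4 receptor. It measured 1309 ± 311 in Prmt5-null and 2620 ± 164 in controls (SD, n = 4), a log2 fold change of -1.03 (SE 0.14, adjusted p = 0.000769, limma). Il2rg, that common chain, passed the adjusted p but not the fold, at -0.36 (adjusted p = 0.0328, limma). Batf, a transcription factor needed for switching, likewise passed only the p, at 0.58 (adjusted p = 0.0141, limma). Stat6, which carries the IL-4 signal to the germline promoters, stood at -0.07 (adjusted p = 0.602, limma), and Il4ra, the IL-4 receptor chain, at 0.07 (adjusted p = 0.756, limma).

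Of 27 genes of switch recombination, none was called, with a list median of -0.04. Of the same 27, 4 passed limma's adjusted p, all lower, beside 13.8% of all genes tested in either direction. They included H2afx (histone H2AX) at -0.52, the kinase Atm at -0.48 and Xrcc5 (Ku80) at -0.40, with adjusted p of 0.0154, 0.0308 and 0.00379 in limma's test. Ung, which removes uracils from DNA, stood at 0.21 (adjusted p = 0.108, limma).

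Of 5 partner genes of the antigen receptor and light chain genes tested, from a list of 7, 1 was called, against 6.48% of all genes. The list median was 0.10. Cd79a, the Igα chain that pairs with membrane immunoglobulin for signaling, measured 8137, 8809, 6939 and 8571 in Prmt5-null libraries, and 14257, 14069, 13565 and 12214 in control libraries. The groups stood far apart, with a log2 fold change of -0.74 (SE 0.09, adjusted p = 0.000327, limma). Cd79b, the Igβ chain, stood at 0.10 (adjusted p = 0.491, limma). Cd81, a tetraspanin of the B cell surface, rose by 0.48 without reaching 1.5-fold (adjusted p = 0.00122, limma).

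Next were 12 genes that act on the 3′ end choice and splicing of heavy chain RNA. Their choices lie between membrane and secreted or mu and delta forms. The list median was 0.03. Against 6.48% of all genes tested, 1 of the 12 was called. It was Eaf2, which codes for a partner of the ELL elongation factors, at 613 ± 86.9 in Prmt5-null and 1665 ± 314 in control iGBs (SD, n = 4, log2 fold change -1.43, adjusted p = 0.000133, limma). Cstf2t, a cleavage stimulation factor gene, at 0.58 and Hnrnpll, a splicing regulator gene, at 0.50 passed the adjusted p alone (0.000496 and 0.0421, limma). Ell2, an elongation factor of secreted heavy chain RNA, stood at -0.20 (adjusted p = 0.295, limma). Zfp318, which is needed for IgD, stood at -0.35 (adjusted p = 0.154, limma).

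Of 7 Fc receptor genes tested, 1 was called, against 6.48% of all genes, and the list median was -0.05. Fcgr2b, the inhibitory receptor for IgG, measured 1551 ± 112 in Prmt5-null and 1031 ± 146 in control iGBs (SD, n = 4, log2 fold change 0.60, adjusted p = 0.00379, limma). Another 3 passed the adjusted p alone: Fcrla at 0.50 (adjusted p = 0.0219, limma), Fcrl1 at -0.50 (adjusted p = 0.0347, limma) and Faim3, the receptor for IgM, at -0.56 (adjusted p = 0.0127, limma). Fcer2a, the low affinity receptor for IgE, stood at -0.05 (adjusted p = 0.782, limma).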

How the data were processed

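Ribosomal RNA-depleted, stranded libraries of 8 samples were sequenced as paired reads. Per the submitters' processing notes and the methods of the study, reads were trimmed with Trimmomatic 0.32, aligned to mm10 (GRCm38) with STAR 2.3.0e and counted on exons of Ensembl genes with featureCounts 1.4.4. The authors deposited the gene table as signal values, the counts divided by DESeq2 1.14.1 size factors. The strand setting of the counting and the Ensembl release are not given in the sources used here, so reads of antisense or overlapping genes cannot be told apart. Dividing each library by the value of a single read gave whole reads for every gene within 0.001, and these served for edgeR and DESeq2. The deposited splicing tables list p-values and inclusion differences of the authors' own comparison and were not used.

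The 16250 genes whose normalized counts averaged 10 or more were tested with limma 3.58.1 with a mean-variance trend (R 4.3.3) on log2(normalized count + 1), a scale that understates changes of low genes, over all 8 libraries without covariates, and p-values were adjusted by Benjamini-Hochberg. Calls needed an adjusted p under 0.05 together with a change of 1.5-fold or more. Fitted log2 fold changes are Prmt5-null minus control. Shares and log2 ratios were compared by two-sided exact permutation of the libraries. Alternatives were edgeR 4.0.16 and DESeq2 1.42.0 on recovered reads, pseudocounts of 0.5 and 5, other filters, scaling to reads outside immunoglobulin genes, leaving out each library and a block for the experiment. The fits were tested on simulated data. Libraries of a genotype differed beyond sampling noise and, per the methods of the study, come from independent biological samples. Gene positions and lengths are from GENCODE M21 on GRCm38, and sequences are from its transcripts.

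The genes described and the lists were chosen with earlier results of these data known. The genes named are the constant region genes, Prmt5, and, of each list, the genes called and up to 2 genes chosen for their role. Others, including Igj under its older symbol, Xbp1, Irf4, Sdc1, Tnfrsf17, Iglc2, the markers of other cell types and all genes that passed only the adjusted p, were named after their values were seen. Some genes of the lists are not reported here by name.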

Additional observations from a re-analysis of the deposited data

Results flagged for a closer look

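Of 48 groups of 4 libraries examined, 2 held a library farther from the other 3 than Dixon's test allows at the 95% level, and chance gives about 1 in 20. In control library CTRL-10597, Ighg2c took 0.0339% of heavy chain constant reads, against 0.0105 to 0.0128% in the other controls, on 60 reads against 24 to 33. In control library CTRL-10370, the ratio of Ighg2b to Ighg1 reads was 0.00213, against 0.00285 to 0.00292 in the other controls. Without that library, the log2 difference between genotypes in this ratio was 1.15, the lowest of the values with 1 library left out.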

How the results depend on the processing

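No paired analysis was possible because the groups share no replicate numbers. The design text speaks of 2 experiments, with both genotypes in each, and does not say which libraries belong to which. The experiment was therefore tried as a block in each of the 18 placements with 2 libraries of each genotype per experiment. Uneven placements were not run. Ighg2b and Ighm passed limma's adjusted p in all 18. Ighe passed in 6 of 18 (adjusted p 0.0052 to 0.0823), Ighg1 in 1 and Ighg3 in 2. Genes called numbered 1053 of 16250 tested, with 1091 in edgeR, 1277 in DESeq2 and 917 to 1243 under the block on the same genes. The other filters changed the genes tested, with 976 called of 26696 without a filter and 842 of 13300 above a mean of 50.

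In DESeq2, Ighg1 passed at a log2 fold change of 0.24 (adjusted p = 0.0366) and Ighg3 at 0.51 (adjusted p = 0.0421), and Ighe passed at -0.76 in both edgeR and DESeq2. Under the block the fitted changes of Ighg1, Ighg3 and Ighe stayed at 0.23, 0.50 and -0.73. No result changed direction under any alternative run. The causes of these differences were not tested.

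With 1 library left out, genes called ranged from 795 to 1173. Log2 fold changes ranged from 1.34 to 1.63 for Ighg2b, 0.40 to 0.56 for Ighm, -0.94 to -0.58 for Ighe, 0.20 to 0.28 for Ighg1, 0.36 to 0.62 for Ighg3, 0.43 to 1.03 for Ighg2c, -0.77 to -0.17 for Igha and -0.16 to -0.04 for Igkc. Ighe also passed without Prmt5-null library PRMT5-10618, at -0.80 (adjusted p = 0.0464, limma), and of the 8 genes 1 or 2 were called in each such fit. Share differences ranged from -20.9 to -13.7 points for Ighe, 2.10 to 3.00 for Ighg1, 11.1 to 18.2 for Ighm and 0.0766 to 0.0915 for Ighg2b. Log2 ratio differences ranged from -1.14 to -0.83 for Ighe to Ighg1, -1.50 to -0.98 for Ighe to Ighm, -0.36 to -0.14 for Ighg1 to Ighm, 1.15 to 1.36 for Ighg2b to Ighg1, -1.07 to -0.65 for all classes other than IgM to Ighm, 0.10 to 0.15 for heavy chain to Igkc and 0.0216 to 0.0296 for Igkc to the kappa variable genes. Exact permutation p for the Ighe share and for Ighe to Ighg1 was 0.0571 whenever a Prmt5-null library was left out, though the libraries still did not overlap. The Ighg1 share did the same, also without CTRL-10650, and heavy chain to Igkc rose to 0.0857. Without CTRL-10370, the ratio of all classes other than IgM to Ighm reached an exact permutation p of 0.0286.

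Ratios with Ighd and with Iglc1 were not run, since neither has a row in the table used. Igkc to Iglc2 took the place of the latter after the data were seen. Ighg2c, with 23 to 87 reads per library, is where depth limits most.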
